A study of Caenorhabditis elegans with 6 samples.

Results

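The 38 genes described here are called transmitter genes below. In Caenorhabditis elegans they make, load, take up or break down neurotransmitters, or belong to the SLC6 transporter family with no transmitter assigned here. They were chosen by public gene name among the 21882 genes of the deposited raw table, and all 38 were found there. They comprise 3 vesicular glutamate transporters, 6 glutamate uptake transporters of the glt family, 5 genes of GABA synthesis, loading, uptake or breakdown, 4 genes of acetylcholine handling, 10 genes of monoamine handling, the betaine transporter snf-3 and 9 other members of the SLC6 (snf) transporter family. The names snf-4 and snf-8 belong to annotated pseudogenes. RNA was measured in GFP-positive cells sorted from dissociated L3 larvae, in 3 libraries from CHE-1 animals and 3 from control animals. CHE-1 animals were strain BAT2088, genotype barIs177; barIs115; glp-4(bn2), in which the unc-122 promoter, active in coelomocytes, drives FLAG-tagged CHE-1 followed by the unc-54 3' UTR, with a myo-2 promoter mCherry marker in the same transgene. Control animals were strain BAT2087, genotype barIs177; glp-4(bn2). The unc-122 promoter GFP reporter of barIs177, the glp-4(bn2) allele that leaves the animals without a germline at the restrictive temperature, the stage and the growth conditions were common to both groups. Each group was 1 strain, so CHE-1 and any other difference between the strains cannot be told apart. The number of animals behind a library and whether libraries came from separate cultures are not given in the labels, so the p-values below rest on the spread of these libraries alone, which may be technical.

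A neuron's transmitter identity rests on a small set of genes: enzymes that make the transmitter, vesicular transporters that load it into synaptic vesicles, and plasma membrane transporters that take it up again. The ASE gustatory neurons, whose fate the zinc finger transcription factor CHE-1 specifies, release glutamate and load it with EAT-4, the vesicular glutamate transporter. Coelomocytes are scavenger cells that take up fluid and macromolecules from the body cavity by endocytosis, and they are not neurons. The comparison of sorted cells of CHE-1 and control animals therefore bears on transmitter genes where CHE-1 is expressed from a coelomocyte promoter.

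Library totals were between 21353072 and 57860556 counts in the CHE-1 group and between 23062805 and 58325279 counts in the control group. RNA of che-1, which the transgene carries, was seen in every CHE-1 library. The gene had 10744, 50917 and 42227 counts in the CHE-1 libraries, against 3, 0 and 1 counts in the control libraries. All 7 coelomocyte markers had counts in every library, and their summed level was 5281 ± 963 CPM in CHE-1 libraries and 19135 ± 2848 CPM in control libraries (SD, n = 3 each). CPM is the count scaled to a common library size, with TMM factors. Of the 7 coelomocyte markers, 4 passed the test as lower, and all 7 log2 fold changes were negative. They were unequal, from -8.16 for aman-1 to -0.29 for unc-122, which was not called. Markers of neurons of every class summed to 5906, 5221 and 5876 CPM in the CHE-1 libraries, against 548, 535 and 682 CPM in the control libraries. Of the 12 genes, 8 passed the test as higher and 1 as lower, and 10 log2 fold changes were positive and 2 negative. The gene called lower was rgef-1, which averaged 90.0 CPM in CHE-1 libraries and 242 CPM in control libraries. The other negative one, unc-119, averaged 77.6 and 120 CPM in the same order and was not called. Markers of ASE summed to 2151, 2378 and 2462 CPM in CHE-1 libraries, against 111, 115 and 117 CPM in control libraries, with gcy-6 and gcy-14 at 0 in all 6 and ceh-36 at 0 in the controls. That list includes che-1 itself, which the transgene expresses, at 487, 809 and 805 CPM in CHE-1 libraries. Counts by gene cannot tell RNA of the transgene from RNA of the native che-1 gene. The control sums were mostly die-1, at 75.9, 50.3 and 52.9 CPM in CHE-1 libraries, against 106, 115 and 105 CPM in control libraries. In bulk RNA of sorted cells, fewer cells of a type and less RNA per cell cannot be told apart.

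Of the transmitter genes, 3 were higher in CHE-1 libraries and none was lower. They were snf-11, the plasma membrane GABA transporter, gta-1, the GABA transaminase that breaks GABA down, and glt-1, a plasma membrane glutamate transporter. The genes for transmitter synthesis and vesicle loading were low or at 0 in both groups, with a highest value of 17 CPM for unc-25. A count in at least 1 library was found for 30 of the 38 genes, and 14 of the 38 passed the filter on low counts and could be tested. Of these 14, the 3 named genes passed edgeR's quasi-likelihood test at a Benjamini-Hochberg adjusted p under 0.05 as higher, beside 3.37% of all 9112 genes tested. None passed as lower, beside 1.69% of all genes tested, and 4 of the 14 had an unadjusted p under 0.05. The remaining 11 did not pass. DESeq2 called 4 of the 15 members to which it gave an adjusted p as higher, adding glt-4, and 0 as lower, beside 7.26% and 4.36% of all genes. The 14 log2 fold changes were positive for 12 genes and negative for 2, beside 4724 positive and 4388 negative of all 9112 genes tested. Their median was 1.57 beside 0.04 over all genes tested. The SE was larger than the absolute log2 fold change for unc-25, cha-1, unc-17, cho-1, snf-6, cat-4, bas-1, tdc-1 and snf-1. The genes were also chosen with earlier results of these data known. The direction of unc-25, unc-17, cho-1, snf-6, cat-4, tdc-1 and snf-1 changed in some other settings.

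Summed by transmitter, the GABA and glutamate uptake classes differed most. The 5 GABA genes summed to 2070, 1760 and 2433 CPM in CHE-1 libraries, against 95.8, 80.6 and 137 CPM in control libraries. The 6 glutamate uptake genes summed to 213, 159 and 240 CPM in CHE-1 libraries, against 31.3, 53.4 and 32.2 CPM in control libraries. In both classes the groups did not overlap, nor did they for betaine, a class of the 1 gene snf-3. All 38 genes together summed to 2465 ± 361 CPM in CHE-1 libraries and 288 ± 51.8 CPM in control libraries (SD, n = 3 each). Without snf-11, gta-1 and glt-1, the other 35 genes summed to 183, 266 and 216 CPM in CHE-1 libraries, against 123, 184 and 185 CPM in control libraries. The lowest CHE-1 sum lay within the range of the control sums, so these groups overlapped.

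**Figure D1:**
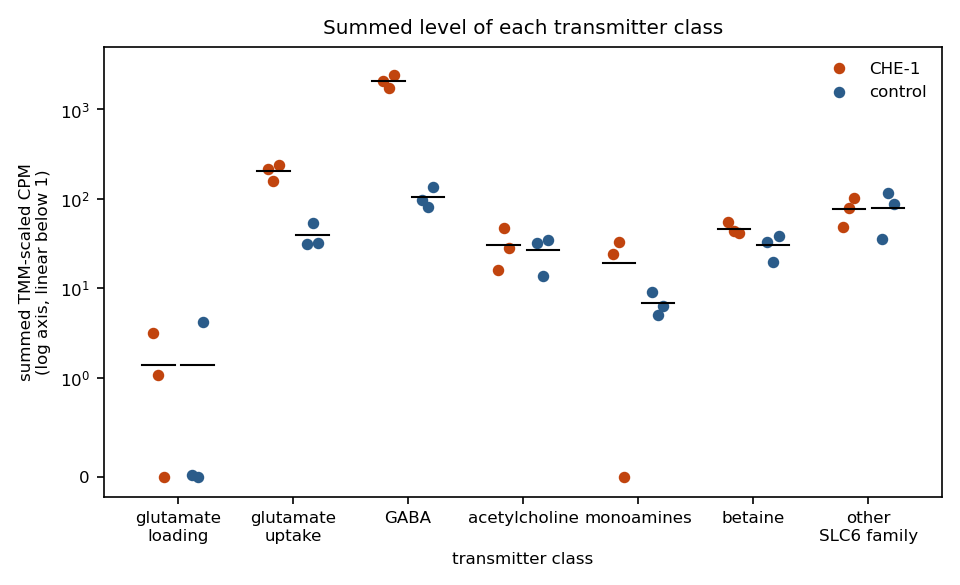
Summed TMM-scaled CPM of each transmitter class (y axis, logarithmic and linear below 1) in each CHE-1 library (orange) and control library (blue), with the mean of 3 libraries as a bar. The groups do not overlap in the GABA, glutamate uptake and betaine classes, while glutamate loading averages 1.40 CPM in both and the acetylcholine and other SLC6 classes overlap.

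Glutamate loading was close to absent from the counts in both groups. The vesicular glutamate transporter eat-4 (WBGene00001135, III:9136887-9141827 on the plus strand of WBcel235) had 69, 0 and 0 counts in the CHE-1 libraries, against 0, 0 and 107 counts in the control libraries. This is 3.13, 0 and 0 CPM in CHE-1 libraries, against 0, 0 and 1.99 CPM in control libraries. The gene of the ASE transmitter was thus seen in 1 library of each group, and it did not pass the filter for a test. Where it was at 0, a count of 0 allows a level of up to 0.0476 CPM in CHE-1 library 2 and 0.0572 CPM in CHE-1 library 3, against 0.0589 CPM in control library 1 and 0.126 CPM in control library 2, for counting error only. Its relative vglu-2 had 0, 1.06 and 0 CPM in CHE-1 libraries, against 0.0196, 0 and 2.18 CPM in control libraries. The third gene of the family, vglu-3, had no count in any library. Together the 3 genes averaged 1.40 ± 1.59 CPM in CHE-1 libraries and 1.40 ± 2.40 CPM in control libraries (SD, n = 3 each).

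Glutamate uptake was carried by glt-1 and glt-4. The gene glt-1 (WBGene00001620, X:3496026-3499169, plus strand) encodes a sodium-dependent transporter of the excitatory amino acid transporter family, which clears glutamate from the space outside cells. It had 184, 114 and 203 CPM in the CHE-1 libraries, against 20.4, 40.3 and 26.6 CPM in the control libraries. Every CHE-1 library was above every control library. The log2 fold change was 2.52 (SE 0.36), and the edgeR adjusted p was 0.00141. It lay between 0.000781 and 0.00685 with any 1 library left out. The relative glt-4 (WBGene00001622, X:6403422-6408411, plus strand) had 20.9, 43.2 and 37.7 CPM in CHE-1 libraries, against 10.9, 13.1 and 5.27 CPM in control libraries. Here too the groups did not overlap, but the test was not passed, with a log2 fold change of 1.80 (SE 0.65) and an edgeR adjusted p of 0.194. It was called by DESeq2, at an adjusted p of 0.0488, and by edgeR with adjusted deviances, at 0.0171, and not by limma-voom, at 0.0991. The muscle gene mup-2, troponin T, ends 59 bases past glt-4 on the opposite strand and had 864, 1062 and 1147 CPM in CHE-1 libraries, against 176, 184 and 136 CPM in control libraries. Whether its reads contributed to glt-4 was not tested.

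The other glt genes were sparse. A count of glt-3 was present in CHE-1 library 1 alone, at 8.02 CPM, and glt-3 was at 0 in the other 5 libraries. With glt-5, 1.76 CPM in CHE-1 library 2 and 0.335 CPM in control library 3 were the levels above 0. No count was found for glt-6 or glt-7. Within the family, glt-1 made up 80.8% ± 7.94 of the summed CPM in CHE-1 libraries and 74.4% ± 8.71 in control libraries (SD, n = 3 each), a difference within the SDs.

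The GABA genes included the largest fold change among the 14 tested, that of snf-11. GABA is made from glutamate by UNC-25, glutamic acid decarboxylase, loaded by the vesicular transporter UNC-47 with its partner UNC-46, taken up by SNF-11 and broken down by GTA-1. The gene snf-11 (WBGene00004910, V:11305070-11308446, minus strand) had 37290, 93271 and 109567 counts in the CHE-1 libraries, against 2265, 1086 and 2774 counts in the control libraries. Its levels were 1690, 1481 and 2090 CPM in CHE-1 libraries, against 44.5, 45.6 and 51.7 CPM in control libraries. The lowest CHE-1 library was far above the highest control library, and the control libraries were close to each other. The mean was 1754 ± 309 CPM in CHE-1 libraries and 47.2 ± 3.89 CPM in control libraries (SD, n = 3 each). The log2 fold change was 5.21 (SE 0.22), a 37.1-fold higher level, with an edgeR adjusted p of 3.08e-07. Among the 307 genes called higher, snf-11 ranked 4 by p and 74 by fold. The call held with any 1 library left out, with log2 fold changes between 5.07 and 5.32. The flanking genes were low: srh-45, 90 bases away, had 7.25, 0.0476 and 0 CPM in CHE-1 libraries and was at 0 in the control libraries, and T03F7.7, 2975 bases away on the other side, was at 0 in the CHE-1 libraries and had 0.317 CPM in control library 3 as its highest value.

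The GABA transaminase gene gta-1 (WBGene00001794, IV:10180660-10183865, plus strand) had 373, 262 and 334 CPM in the CHE-1 libraries, against 48.8, 18.5 and 77.0 CPM in the control libraries. The groups did not overlap. The mean was 323 ± 56.4 CPM in CHE-1 libraries and 48.1 ± 29.3 CPM in control libraries (SD, n = 3 each), a log2 fold change of 2.75 (SE 0.47) with an edgeR adjusted p of 0.00884. This call was lost without CHE-1 library 1, at an adjusted p of 0.0516, and without control library 1, at 0.125. The gene ptrg-1 overlaps gta-1 on the opposite strand and had a highest value of 5.69 CPM.

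The genes that make and load GABA were low in both groups, and none passed the test. The synthesis gene unc-25 had 7.93, 17 and 4.65 CPM in CHE-1 libraries, against 2.49, 16.6 and 7.47 CPM in control libraries. The groups overlapped, and the log2 fold change was 0.16 (SE 1.40; edgeR adjusted p = 0.998). The vesicular GABA transporter gene unc-47 was at 0 in the CHE-1 libraries and had 0.727 CPM in control library 3 alone. Its partner unc-46 had 4.14 CPM in CHE-1 library 3 and 0.168 CPM in control library 3, and was at 0 elsewhere. The GABA genes that passed were thus the uptake and breakdown pair, which act on GABA that is already made.

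**Figure D2:**
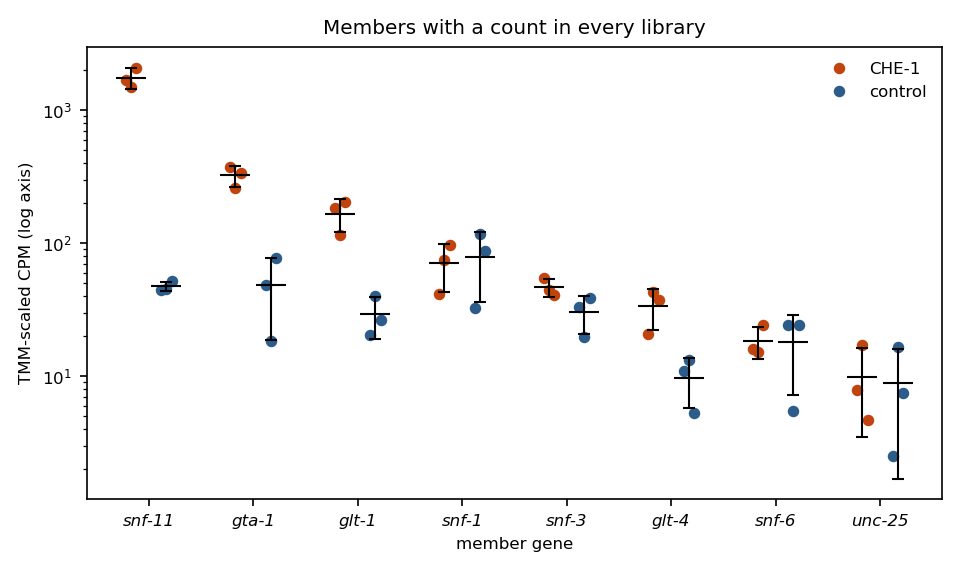
TMM-scaled CPM (y axis, logarithmic) of the 8 transmitter genes with a count in every library, in CHE-1 libraries (orange) and control libraries (blue), with mean and SD of 3 libraries. The genes snf-11, gta-1 and glt-1 lie higher in every CHE-1 library than in any control library and passed the test, glt-4 and snf-3 do so without passing it, and snf-1, snf-6 and unc-25 overlap.

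Markers of other cell types were measured in the same libraries as these 3 genes. In C. elegans, glt-1 is known from muscle and hypodermis, and snf-11 from GABA neurons and muscle. Of the 10 body wall muscle markers 9 were tested, 2 were called higher (mup-2 and lev-11) and 1 lower (unc-54, whose 3' UTR is also part of the CHE-1 transgene). With all 10, the muscle markers summed to 23208 ± 4557 CPM in CHE-1 libraries and 37306 ± 830 CPM in control libraries (SD, n = 3 each). Without unc-54 they summed to 2779, 3972 and 2911 CPM in CHE-1 libraries, against 1665, 1310 and 1101 CPM in control libraries. In that sum, mup-2 averaged 1024 CPM in CHE-1 libraries and 166 CPM in control libraries, and lev-11 averaged 815 and 253 CPM. The groups overlapped for each of the other muscle markers in it, and none of those was called. None of the 7 tested hypodermis markers was called, and these markers summed to between 243 and 309 CPM in CHE-1 libraries and between 204 and 514 CPM in control libraries, with bli-1 at 0 in all 6. The intestinal markers summed to 212, 931 and 660 CPM in CHE-1 libraries, against 226, 306 and 306 CPM in control libraries, with 0 of 9 called. The glial markers summed to 11.7 ± 6.96 CPM in CHE-1 libraries and 9.99 ± 3.73 CPM in control libraries (SD, n = 3 each), with ptr-10, delm-1, mls-2, lin-48 and ram-5 at 0 in the CHE-1 libraries and delm-1 at 0 in the control libraries. Of the tested markers of pharynx, germ line and excretory canal, 0 of 4, 0 of 5 and 0 of 3 were called by edgeR. DESeq2 called 2 excretory canal markers, 1 pharynx marker and 1 glial marker lower. The excretory canal markers summed to 211, 289 and 297 CPM in CHE-1 libraries, against 393, 491 and 490 CPM in control libraries. The pharynx markers averaged 72.6 ± 38.3 and 234 ± 244 CPM, and the germ line markers 41.3 ± 26.3 and 37.7 ± 4.78 CPM, in the same order. Of hlh-8 and mls-1, markers of other mesoderm, hlh-8 was tested and called lower. The part of other cells in the differences of snf-11, gta-1 and glt-1 was not tested.

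None of the acetylcholine genes passed the test. Acetylcholine is made by CHA-1, choline acetyltransferase, loaded by UNC-17, its vesicular transporter, and sustained by CHO-1, which takes choline back into cholinergic neurons. The genes cha-1 (IV:3613931-3624697) and unc-17 (IV:3618259-3624699) overlap on the minus strand and share sequence, so their estimated counts cannot be separated with certainty. The level of cha-1 was 0, 7.56 and 3.45 CPM in CHE-1 libraries, against 0, 0 and 1.97 CPM in control libraries (log2 fold change 2.47, SE 3.48). The level of unc-17 was 0, 15.9 and 0 CPM in CHE-1 libraries, against 7.82, 8.10 and 4.83 CPM in control libraries (log2 fold change -0.38, SE 2.57). The same library, CHE-1 library 2, held the highest value of both. For cho-1 the values were 0, 8.69 and 0.458 CPM in CHE-1 libraries, against 0.118, 0 and 3.48 CPM in control libraries (log2 fold change 1.34, SE 3.28). The SLC6 family acetylcholine transporter gene snf-6, known from muscle, was more even, with 15.9, 15.3 and 24.1 CPM in CHE-1 libraries, against 24.2, 5.50 and 24.4 CPM in control libraries (log2 fold change 0.03, SE 0.77). The edgeR adjusted p was 0.998 for each of the 4 genes, and the groups overlapped for each. Summed over the class, levels were 30.5 ± 15.9 CPM in CHE-1 libraries and 26.8 ± 11.5 CPM in control libraries (SD, n = 3 each).

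Monoamine genes were detected unevenly. All 10 had a count somewhere, 5 of them in exactly 1 library, and CHE-1 library 3 had none of them. The class summed to 24.1, 32.7 and 0 CPM in the CHE-1 libraries, against 9.09, 5.03 and 6.28 CPM in the control libraries. The CHE-1 libraries thus spanned more than the control range, from below it to above it. The gene cat-4, GTP cyclohydrolase, which supplies the biopterin cofactor for dopamine and serotonin synthesis, had 14.4, 2.87 and 0 CPM in CHE-1 libraries, against 3.46, 0 and 0.969 CPM in control libraries (log2 fold change 1.96, SE 3.05). The gene bas-1, the aromatic amino acid decarboxylase, had 9.70, 2.75 and 0 CPM in CHE-1 libraries, against 0.844, 0 and 1.42 CPM in control libraries (log2 fold change 2.45, SE 3.26). Both genes act in dopamine and serotonin synthesis, and both were highest in CHE-1 library 1. The tyrosine decarboxylase gene tdc-1, which makes tyramine, had 0, 7.78 and 0 CPM in CHE-1 libraries, against 0, 5.03 and 1.75 CPM in control libraries (log2 fold change 0.20, SE 3.40). None of these 3 tested genes passed, each with an edgeR adjusted p of 0.998.

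The other 7 monoamine genes were too sparse to test. Tyrosine hydroxylase, cat-2, and tryptophan hydroxylase, tph-1, make the first committed step to dopamine and serotonin, and had 5.81 and 9.20 CPM in CHE-1 library 2 and 0 in the other 5 libraries. The vesicular monoamine transporter gene cat-1 had 2.91 CPM in the same CHE-1 library and 0.969 CPM in control library 3. The octopamine synthesis gene tbh-1, tyramine beta-hydroxylase, had 1.38 CPM in CHE-1 library 2 and 0.708 CPM in control library 3. The genes for uptake had a count in 1 control library each and in no CHE-1 library. The serotonin transporter gene mod-5 had 4.48 CPM in control library 1, the organic cation transporter gene oct-1 had 0.314 CPM in the same library, and the dopamine transporter gene dat-1 had 0.466 CPM in control library 3. As a floor, the level that a count of 0 allows was taken as 3 counts per library, averaged over the group. The CHE-1 mean was 38.2-fold the control floor for tph-1, 24.2-fold for cat-2 and 33.3-fold for glt-3. The control mean was 18.6-fold the CHE-1 floor for mod-5, 3.02-fold for unc-47, 1.93-fold for dat-1 and 1.3-fold for oct-1. Each of these folds rests on 1 library, the other libraries of the same group being at 0 too, and allows for counting error only. None of these genes passed the filter for the edgeR test or was called when that filter was left out.

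Among the remaining SLC6 transporters, snf-3 and snf-1 were present throughout. The betaine transporter gene snf-3 had 54.4, 44.1 and 41.0 CPM in CHE-1 libraries, against 33.1, 19.7 and 38.4 CPM in control libraries. The lowest CHE-1 library lay just above the highest control library, and the log2 fold change of 0.61 (SE 0.41) did not pass (edgeR adjusted p = 0.715). The level of snf-1 was 41.1, 74.3 and 97.3 CPM in CHE-1 libraries, against 32.7, 116 and 87.4 CPM in control libraries, with overlapping groups and a log2 fold change of -0.15 (SE 0.47; edgeR adjusted p = 0.998). The other family members were sparse. With 7.66 and 2.03 CPM in CHE-1 libraries 1 and 2, snf-5 was at 0 in CHE-1 library 3 and in the control libraries. Its CHE-1 mean was 40.3-fold the floor of the control group (DESeq2 adjusted p = 0.0885). The gene snf-12, known for its role in innate immunity of the epidermis, had 2.59 and 3.55 CPM in CHE-1 libraries 2 and 3. It was at 0 in CHE-1 library 1 and in the control libraries, with a CHE-1 mean 25.5-fold the floor (DESeq2 adjusted p = 0.147). The gene snf-10, known for sperm activation by protease in males, had 2.59 CPM in control library 1 alone, a control mean 10.8-fold the CHE-1 floor. These folds allow for counting error only, not for the spread between libraries of a group. None of snf-5, snf-12 and snf-10 passed the filter for the edgeR test or was called when that filter was left out. No count was found for snf-2, snf-7, snf-9 or the pseudogenes snf-4 and snf-8.

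In the SLC6 family, snf-11 alone passed the test. Of the summed CPM of the 14 SLC6 genes, which include snf-6, mod-5 and dat-1, snf-11 took 92.5% ± 0.983 in CHE-1 libraries and 27.1% ± 3.78 in control libraries (SD, n = 3 each). The other 13 summed to 119.1, 138 and 166 CPM in CHE-1 libraries, against 97.0, 141 and 151 CPM in control libraries, and these groups overlapped. Of the CPM of all 38 transmitter genes, snf-11 took 70.9% ± 2.23 in CHE-1 libraries and 16.6% ± 1.93 in control libraries.

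The order of levels among the genes differed between the groups. Per kilobase of exon, the highest level in CHE-1 libraries was that of snf-11, at 826 ± 146 CPM per kb, ahead of gta-1 at 206 ± 36, glt-1 at 89.9 ± 25.1, snf-1 at 30.6 ± 12.2, snf-3 at 21.6 ± 3.26 and glt-4 at 10.6 ± 3.64 CPM per kb (SD, n = 3). Neighbours in this order were apart by more than the sum of their SDs, except snf-1 and snf-3. In control libraries the order was snf-1 at 34 ± 18.3, gta-1 at 30.7 ± 18.7, snf-11 at 22.3 ± 1.83, glt-1 at 15.7 ± 5.47, snf-3 at 14.1 ± 4.47 and snf-6 at 7.30 ± 4.40 CPM per kb (SD, n = 3). There, none of these neighbours was apart by more than the sum of their SDs. Among the 12863 genes with a count and an exon length, snf-11 stood at percentile 98.9 of the CHE-1 level per kb and at percentile 77.3 of the control level per kb.

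**Figure D3:**
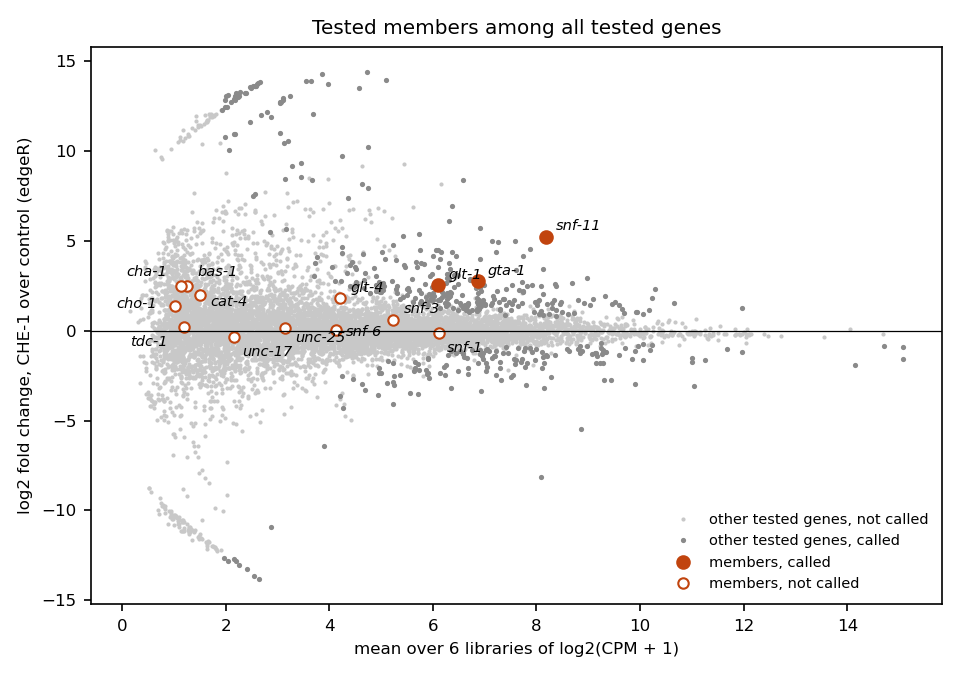
Log2 fold change, CHE-1 over control (y axis), against the mean over 6 libraries of log2(CPM + 1) (x axis) for all 9112 genes tested, with the 14 tested transmitter genes in orange, filled where called. The called genes snf-11, gta-1 and glt-1 lie at middle to high levels, and the 6 cholinergic and monoaminergic genes cha-1, bas-1, cat-4, cho-1, tdc-1 and unc-17 lie at the low end, where the fold changes of all genes spread widely.

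Detection of the transmitter genes varied between the libraries of a group as much as between groups. A count was found for 13, 22 and 12 of the 38 in the CHE-1 libraries, against 16, 10 and 22 in the control libraries, and groups overlapped. The highest number fell to CHE-1 library 2 and control library 3, which had the highest totals of their groups. Of the 30 genes with a count, 8 (26.7%) had one in all 6 libraries, beside 42.5% of the 12913 genes with a count in the series. Another 8 (26.7%) had a count in exactly 1 library, beside 16.4% in the series. Counts in such a library were not always few: tph-1 had 579, cat-2 had 366, mod-5 had 228, glt-3 had 177 and snf-10 had 132 counts in the library that held them, while unc-47 had 39, dat-1 had 25 and oct-1 had 16. Counts confined to the CHE-1 group were found for 5 genes and to the control group for 5, beside 803 and 2166 of the 12913 genes in the series. Of the 14 tested genes, 5 (snf-11, gta-1, glt-1, glt-4 and snf-3) had every CHE-1 library above every control library, beside 13.0% of all genes tested.

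**Figure D4:**
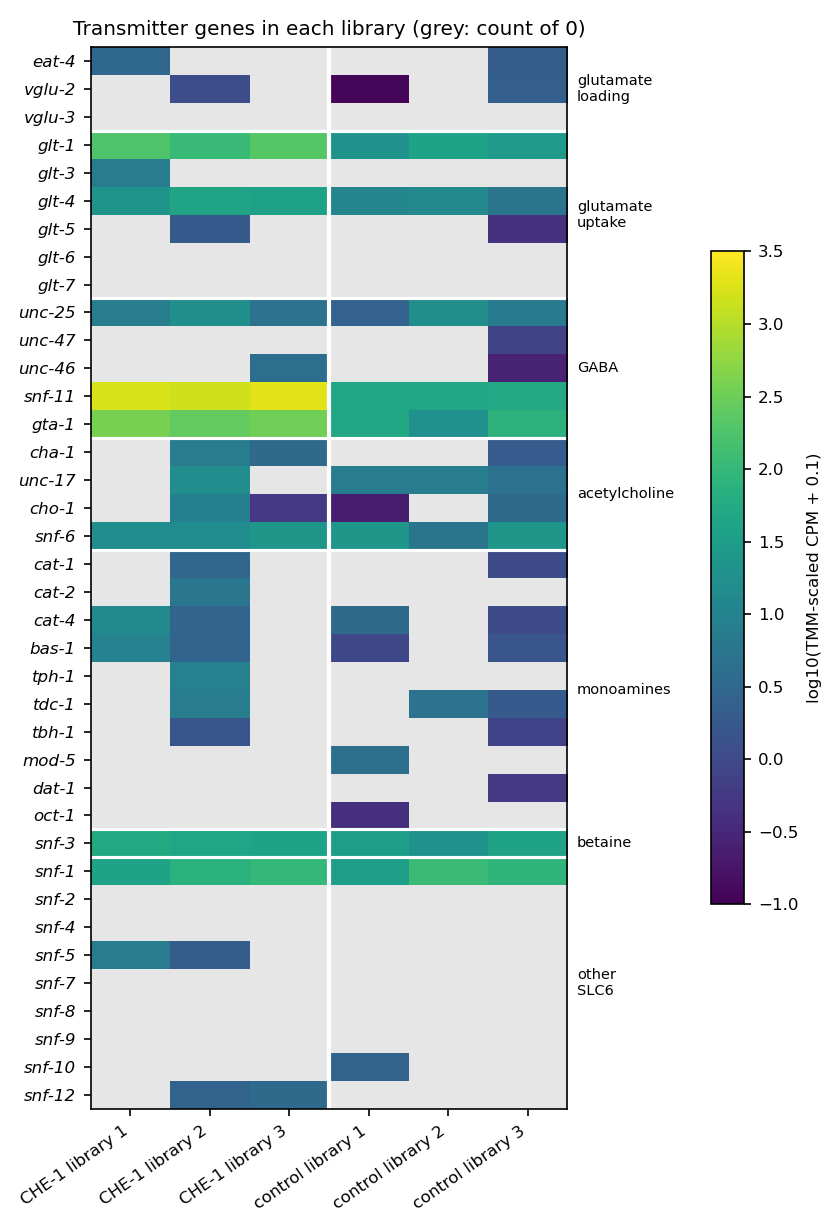
Log10 of TMM-scaled CPM plus 0.1 (colour) of all 38 transmitter genes (down, by class) in the 3 CHE-1 libraries and the 3 control libraries (across), with a count of 0 in grey. The GABA and glutamate uptake rows snf-11, gta-1 and glt-1 are brighter in all 3 CHE-1 libraries, and the monoamine rows are grey throughout CHE-1 library 3.

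Other genes of the same pathways were read from the same fit. Of a list of such genes, all but pmat-1 were found. Of these 74, 65 had at least 1 count and 46 passed the filter for the test. Among these 46, 1 was higher, beside 3.37% of all genes tested, 1 was lower, beside 1.69%, and 44 did not pass, with 7 at an unadjusted p under 0.05 and a median log2 fold change of 0.28, beside 0.04 over all genes tested. The higher one was chtl-1 (X:5355644-5364322, minus strand), which encodes a choline transporter-like protein. It had 770, 646 and 979 CPM in CHE-1 libraries, against 16.4, 24.1 and 36.5 CPM in control libraries, with no overlap, a log2 fold change of 4.96 (SE 0.34) and an edgeR adjusted p of 7.40e-06. The lower one was gdh-1, glutamate dehydrogenase, which links glutamate to the citric acid cycle in mitochondria. It had 767, 928 and 1050 CPM in CHE-1 libraries, against 1656, 1468 and 1691 CPM in control libraries, with no overlap, a log2 fold change of -0.81 (SE 0.18) and an edgeR adjusted p of 0.0218. That call was lost without CHE-1 library 1 (adjusted p = 0.0557), CHE-1 library 2 (0.0782) or control library 3 (0.0787).

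The glutamine synthetase gene gln-3 had 972, 962 and 961 CPM in CHE-1 libraries, against 705, 768 and 754 CPM in control libraries, and its log2 fold change was 0.38 (SE 0.16). The groups did not overlap, but the test was not passed (edgeR adjusted p = 0.311). For gln-3 the adjusted p was 0.0357 by DESeq2, 0.298 by edgeR with adjusted deviances and 0.173 by limma-voom. The aspartate aminotransferase gene got-2.2 had 296 ± 77.1 CPM in CHE-1 libraries and 165 ± 46.1 CPM in control libraries (SD, n = 3 each), and did not pass either (log2 fold change 0.84, edgeR adjusted p = 0.137). Its groups did not overlap, and its adjusted p was 0.0378 by DESeq2, 0.0252 by edgeR with adjusted deviances and 0.0526 by limma-voom. The related gene got-1.2 averaged 149 ± 11.9 CPM in CHE-1 libraries and 159 ± 6.19 CPM in control libraries. The V-ATPase subunit gene unc-32, whose pump gives the proton gradient that vesicular transporters use, averaged 618 ± 76.8 CPM in CHE-1 libraries and 566 ± 130 CPM in control libraries. The SLC17 family genes slc-17.2 and slc-17.4 averaged 161 ± 18.7 and 130 ± 25.2 CPM in CHE-1 libraries and 123 ± 42.6 and 114 ± 29.1 CPM in control libraries. None of got-1.2, unc-32, slc-17.2 and slc-17.4 passed the test. Of the 16 ionotropic glutamate receptor genes on the list 6 were tested, and 0 were called by edgeR and 2 by DESeq2. One of these, glr-4, singled out after its values were seen, had 76.7, 99.98 and 181 CPM in CHE-1 libraries, against 2.53, 0 and 2.76 CPM in control libraries. The groups did not overlap. The log2 fold change was 6.05 (SE 1.39), with an adjusted p of 0.0774 by edgeR, 2.14e-07 by DESeq2, 3.17e-12 by edgeR with adjusted deviances and 0.0514 by limma-voom, and between 0.000159 and 0.463 by edgeR with any 1 library left out. Over the whole list, DESeq2 called 6 higher and 1 lower of the 46 with an adjusted p, beside 7.26% and 4.36% of all genes.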

How the data were processed

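Polyadenylated RNA of GFP-positive cells was measured in 6 libraries, 3 per group. The raw table that the authors deposited gives an estimated count for each gene, in whole numbers, and the submitters' processing notes name Salmon 0.13.1, DESeq2 and WBcel235 without a role. How transcripts were summed to genes and whether strand was used are not given in the sources used here, although the design text calls the libraries strand-specific. The deposited normalized table holds a signal that equals the count divided by 1 factor per library for its 12808 genes, as the values show, and it was used only for that check. No per-sample column was left unmapped. The labels give no replicate number, so libraries were numbered 1 to 3 per group in accession order, which pairs nothing.

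From the estimated counts, the groups were compared across all genes with edgeR 4.0.16 (robust quasi-likelihood fit, two-sided, TMM, default filter with minimum count 10 and minimum total 15) in R 4.3.3. Calls needed a Benjamini-Hochberg adjusted p under 0.05 over all genes tested. The approximate SE is the absolute log2 fold change divided by the square root of F. Levels are TMM-scaled CPM, divided by exon length (Ensembl WBcel235) for comparisons between genes. Where a gene was at 0, its upper limit was set at 3 counts per library, for counting error only, since PCR copies are not independent molecules. Same-group libraries differed beyond sampling noise, with a chi-square of 213 or more for each degree of freedom. Alternatives were DESeq2 1.42.0, limma-voom (limma 3.58.1), adjusted deviances, RLE factors, no filter, and libraries left out. The members and gene lists were chosen with earlier results of these data known. All 38 members, che-1, every called pathway gene and the 6 others of highest mean CPM are named. Genes neighbouring a member and glr-4 were named after their values were seen. So were the markers die-1, rgef-1, unc-119, aman-1 and unc-122, those at 0 and those called in muscle. Symbols came from a gene name table for 19626 identifiers and from RefSeq locus tags for 1893 more. Sequences were not used here.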

Additional observations from a re-analysis of the deposited data

How the results depend on the processing

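Of 167 log2 fold changes of the tested transmitter genes under other settings, 141 kept their direction and their side of the threshold. The genes snf-11 and glt-1 were called in every setting run, gta-1 in all but the fits without CHE-1 library 1 or control library 1, and glt-4 with DESeq2 and adjusted deviances. With any 1 library left out, between 2 and 3 of the 38 genes were called higher and 0 lower. Against 307 genes called higher and 154 lower in all, there were 474 and 255 without the filter on low counts, 690 and 414 with DESeq2, 461 and 267 with limma-voom, and 695 and 354 with adjusted deviances. With any 1 library left out they were between 234 and 347 higher and between 113 and 179 lower. Of the other pathway genes, 1 was called higher, against 2 without the filter, 6 with DESeq2, 2 with limma-voom, 4 with adjusted deviances, 2 without the library of the lowest total in each group, and between 1 and 2 with any 1 library left out. Between 0 and 1 were called lower with any 1 library left out. The cause of these shifts was not tested. Summed class levels moved by less than 1 SD with RLE factors or plain totals.

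Direction changed for 7 genes, none of which passed the test in any setting. With adjusted deviances, log2 fold changes were 0.10 for unc-17, -0.12 for snf-6 and 0.015 for snf-1. With limma-voom they were -0.14 for snf-6, -1.60 for tdc-1 and 0.20 for snf-1. Without the library of the lowest total in each group they were 0.28 for unc-17, -0.36 for snf-6, -0.66 for cat-4 and 0.44 for snf-1. With any 1 library left out they ran from -0.49 to 0.91 for unc-25, -11.13 to 0.21 for unc-17, -2.37 to 5.56 for cho-1, -0.47 to 0.27 for snf-6, -0.036 to 3.48 for cat-4, -9.52 to 1.48 for tdc-1 and -0.57 to 0.16 for snf-1. The median over all genes was 0.13 without control library 1, against 0.04 with all libraries.

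No paired analysis was possible because no label links a CHE-1 library to a control library by replicate number, culture or sort. Library names run in consecutive pairs of 1 CHE-1 and 1 control library, and a fit on these pairs was not made, since what such a pair shares is not stated. With the filter on low counts 14 of the 38 genes were tested, and without it 30, of which the same 3 were called.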
